A study of Mus musculus with 9 samples.

Results

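Dbp, Tef, Hlf, Nfil3 and Ciart are output and feedback genes of the circadian clock, chosen by symbol in the gene lists of the deposited single-cell count matrices. They were 5 of the 30406 genes that all 9 libraries had in common, and all 5 were detected in every library. Each library was 1 culture of mouse embryonic fibroblasts (MEFs) that was being reprogrammed to induced neurons, from wild-type (WT), Per1-/- or Per2-/- mice, taken on day 4, 7 or 10, with 1 library for each genotype and day. All cultures, WT included, received the lentiviral neuronal reprogramming factors (under a doxycycline-inducible promoter, with the M2rtTA transactivator), and day 0 was the change to serum-free N3 medium with doxycycline. The MEFs were pooled from 4 embryos per dish without sexing, and the mutant mice carried the alleles Per1tm1Drw and Per2tm1Drw. The hour of the day at which each culture was harvested is not given in the sources used here. The study's methods describe synchronisation with dexamethasone for Per2::Luc cells, and list no such step in the general protocol for induced neurons.

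In the mammalian clock CLOCK and BMAL1 (encoded by Arntl) activate genes through E-boxes, and the PER and CRY proteins repress them. DBP, TEF and HLF are the PAR bZIP factors, named for a region rich in proline and acidic residues beside the basic leucine zipper, and they activate genes through D-boxes. NFIL3 (E4BP4) is a bZIP protein without the PAR region that binds the same D-boxes and represses, and CIART (CHRONO) is no bZIP protein but a repressor of CLOCK and BMAL1. Dbp is a textbook E-box target with a strong daily rhythm in many tissues, whereas Nfil3 is repressed by the nuclear receptors NR1D1 and NR1D2 (REV-ERBs) and is therefore known to run in the opposite phase.

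E-boxes link the members to CLOCK and BMAL1. The promoters of Ciart and of the second Tef start, which hold the canonical E-box CACGTG, are therefore printed here. They run 5′ to 3′ on the strand of the gene, with each CACGTG in capitals. The sequences are from RefSeq on GRCm38.p6, and only bases outside exons are given. The Ciart promoter lay at chr3:95882252-95882478 on the minus strand. The upstream promoter of the second Tef start lay at chr15:81811164-81811413 on the plus strand.
Ciart: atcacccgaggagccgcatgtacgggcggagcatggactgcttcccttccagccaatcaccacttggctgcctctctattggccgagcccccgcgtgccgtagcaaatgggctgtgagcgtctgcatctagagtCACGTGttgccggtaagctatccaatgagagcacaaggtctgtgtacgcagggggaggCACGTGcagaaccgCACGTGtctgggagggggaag
Tef: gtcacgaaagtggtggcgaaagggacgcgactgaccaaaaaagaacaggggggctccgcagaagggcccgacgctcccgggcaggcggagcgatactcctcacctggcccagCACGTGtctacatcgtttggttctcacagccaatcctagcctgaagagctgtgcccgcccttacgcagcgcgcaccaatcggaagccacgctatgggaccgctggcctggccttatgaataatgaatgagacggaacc

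Ciart held 3 copies of CACGTG, which began 116, 58 and 44 bases before the RefSeq start used for its window. That start lies inside the gene as GENCODE places it, as do both Tef starts. The printed Ciart bases stop where the exon begins, and the printed Tef bases are the full 250-base window. The window of the first Tef start opens inside a Tef exon, so none of it is printed. Both Tef starts of RefSeq had 1 copy within 250 bases, at 127 bases before the first start and 138 bases before the second. The same 250-base windows of Dbp, Hlf and Nfil3 held none, and the D-box letters TTATGTAA or TTACGTAA were in none of the members' windows on either strand. Of 32851 mouse promoter windows of that length, 6.02% held CACGTG, 0.0609% held 3 or more copies and 0.932% held one of the D-box words. A match is a string of letters in a window, and a factor may bind outside it. The genes themselves were placed by GENCODE on GRCm38 at chr7:45705088-45710203 on the plus strand (Dbp, ENSMUSG00000059824), chr15:81802421-81826863 on the plus strand (Tef, ENSMUSG00000022389), chr11:90336536-90390895 on the minus strand (Hlf, ENSMUSG00000003949), chr13:52967209-52981073 on the minus strand (Nfil3, ENSMUSG00000056749) and chr3:95878503-95882251 on the minus strand (Ciart, ENSMUSG00000038550). Dbp shares 737 bases at its 3′ end with Sphk2 on the opposite strand, Tef shares 193 bases with Gm17597, and Ciart lies whole within the antisense gene C920021L13Rik. Reads of 10x 3′ libraries keep the strand of the transcript, by which such pairs can be separated, and the strand setting of the counting is not given in the sources used here.

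After filtering, 73547 cells remained (5620 to 10514 per library), with medians of 14388.5 to 27222.5 unique molecular identifiers (UMI, 1 per captured transcript) per cell. The WT day 10 library stood apart, since 55.4% of its barcodes passed the filters against 86.1% to 94.5% in the others. Pairs of libraries shared 13 to 365 barcodes (median 38), the most between Per1-/- day 4 and Per2-/- day 7. The targeted transcripts gave no check of the labels, since 3′ reads can lie outside the deleted part. Per1 stood at 9.12, 9.46 and 10.3 CPM (UMI counts-per-million, scaled to all UMI of the cells summed) on days 4, 7 and 10 in Per1-/- cells against 6.31, 6.62 and 7.90 CPM in WT cells, and Per2 was likewise higher in Per2-/- cells. In Per1-/- macrophage-like cells of days 7 and 10 Xist was 0.0944 and 0.0652 CPM, against 458 CPM or more in the other 7 libraries, so in these libraries genotype and sex cannot be told apart.

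The members were expressed at different levels and in different cells. Over all cells, Dbp gave 44194 UMI, Tef 84060, Hlf 6953, Nfil3 13654 and Ciart 2587. Over the 9 libraries Dbp ranged from 20.7 CPM in Per2-/- day 7 to 34.3 CPM in Per1-/- day 10, Tef from 45.9 to 59.7 CPM, Hlf from 2.83 to 5.74 CPM, Nfil3 from 7.07 to 8.97 CPM and Ciart from 1.19 to 2.02 CPM.

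Cells were grouped into 28 clusters without using the members or any other clock gene, and 7 classes were named from marker genes. There were 32619 fibroblast-like, 9640 neuron-like, 6432 macrophage-like, 3655 skeletal muscle-like, 2513 Schwann-like, 993 astrocyte-like and 427 mesothelial-like cells, and 17268 cells stayed unnamed. The levels of a member in each pair of classes were compared within the libraries by an exact two-sided sign-flip permutation test on log2(CPM + 1), adjusted over all 105 comparisons. Of these 52 passed an adjusted p of 0.05, namely 10 of 21 for Dbp, 8 for Tef, 13 for Hlf, 15 for Nfil3 and 6 for Ciart.

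Dbp, the PAR bZIP gene with the strongest known rhythm, was highest in astrocyte-like cells, at 23.1, 42.5 and 88.2 CPM as the lowest, median and highest library. The highest of these rested on 18 cells of the Per1-/- day 10 library. Fibroblast-like cells had 22.5, 30.8 and 38.9 CPM, neuron-like cells 12.6, 17.5 and 25.7 CPM, and macrophage-like cells 3.61, 9.81 and 21.3 CPM. Astrocyte-like cells exceeded fibroblast-like cells by 0.44 (SD 0.35) on the log2 scale, in 8 of the 8 libraries with at least 20 cells of both classes (adjusted p = 0.020, exact sign-flip permutation test). The classes between fibroblast-like and macrophage-like cells followed in the order mesothelial-like, Schwann-like, skeletal muscle-like and neuron-like, and no class in that run differed from its neighbour beyond the spread between libraries. Neuron-like exceeded macrophage-like cells in 6 of 9 libraries, by 0.72 (SD 0.99, adjusted p = 0.127, exact test), so that the lowest place of the macrophage-like cells was not separated from the neighbouring class.

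Tef, which encodes the thyrotroph embryonic factor, was highest in the skeletal muscle-like and lowest in the macrophage-like cells. Skeletal muscle-like cells had 56.2, 71.7 and 89.6 CPM (lowest, median, highest library), neuron-like cells 47.0, 62.8 and 70.4 CPM and fibroblast-like cells 40.2, 50.8 and 66.5 CPM. Neighbours in the order of the 6 classes from skeletal muscle-like to fibroblast-like cells did not differ beyond their spread. Across that order, fibroblast-like cells lay below skeletal muscle-like cells in 9 of 9 libraries, with a log2 difference of -0.44 (SD 0.17), and Schwann-like cells in 9 of 9, with -0.39 (SD 0.18, adjusted p = 0.0146 for both, exact test). Macrophage-like cells had 19.2, 22.6 and 29.0 CPM, below the fibroblast-like cells in 9 of 9 libraries by 1.15 (SD 0.26) on the log2 scale (adjusted p = 0.0146, the smallest the exact test allowed with 9 libraries).

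**Figure D1:**
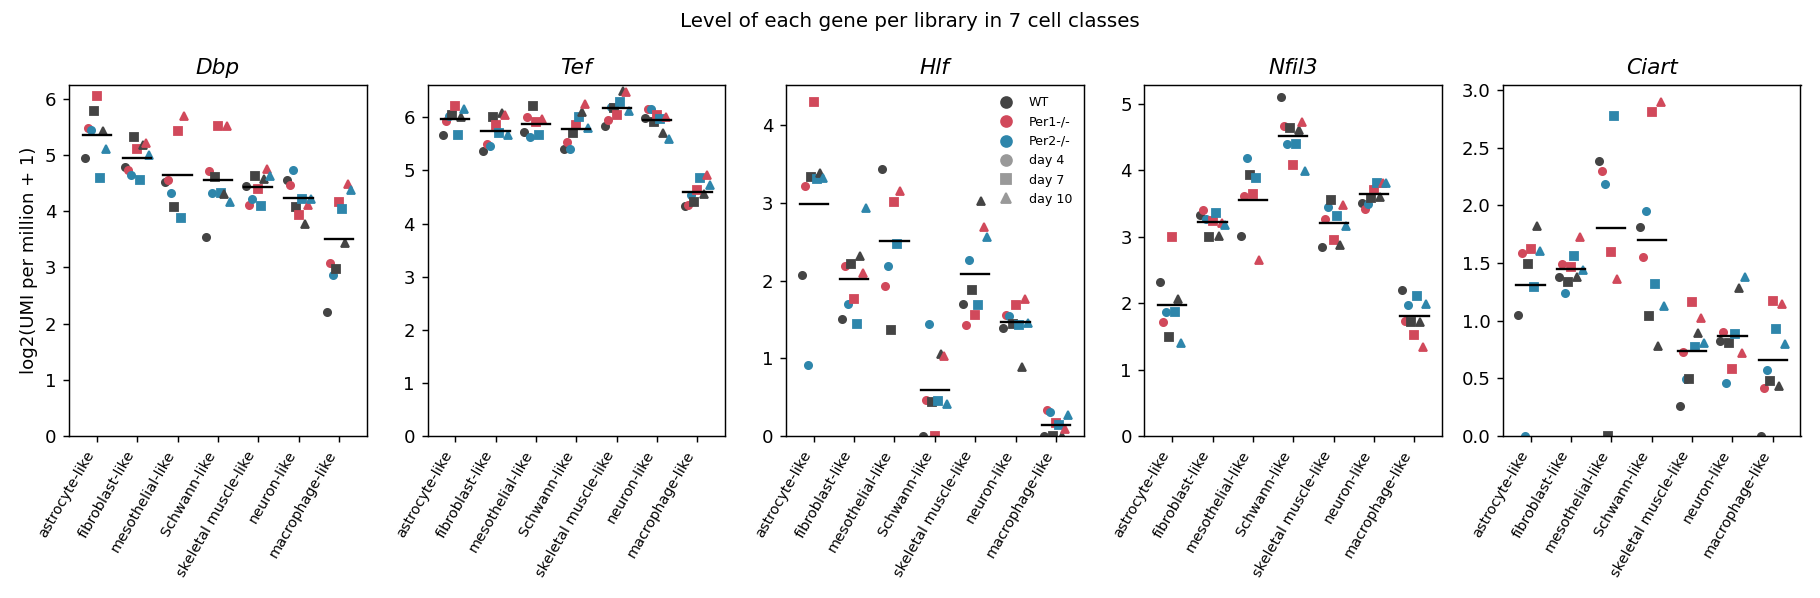
Level of each member in 7 cell classes, as log2(CPM + 1) on the vertical axis, with 1 point per library and a black bar at the mean of the libraries. Hlf is near 0 in the macrophage-like cells, Nfil3 is highest in the Schwann-like cells, and Tef is lowest in the macrophage-like cells.

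Hlf, which encodes the hepatic leukemia factor, was at or near 0 in the macrophage-like and Schwann-like cells. Astrocyte-like cells had 0.886, 8.90 and 18.7 CPM (lowest, median, highest library), mesothelial-like cells 0, 3.55 and 9.85 CPM and fibroblast-like cells 1.72, 3.30 and 6.66 CPM. The mesothelial-like 0 was WT day 10 with 2 cells, where a count of 0 allows up to 55.2 CPM. That library and Per2-/- day 10, with 16 mesothelial-like cells, were left out of the class comparisons. In macrophage-like cells 18 UMI were counted in all 9 libraries together, and the 3 WT libraries had 0, which allows up to 0.833, 0.237 and 0.526 CPM on days 4, 7 and 10. Schwann-like cells also gave 18 UMI in all (0.509 CPM). Astrocyte-like cells came first in the order and were not separated from mesothelial-like (adjusted p = 0.518), skeletal muscle-like (adjusted p = 0.0979) or fibroblast-like cells (adjusted p = 0.0556) in the exact test. Fibroblast-like cells exceeded neuron-like cells in 9 of 9 libraries, by 0.56 on the log2 scale (SD 0.57, adjusted p = 0.0146, exact test), and neuron-like exceeded Schwann-like cells in 8 of 9, by 0.87 (SD 0.58, adjusted p = 0.0293, exact test). The step from Schwann-like to macrophage-like cells missed the threshold (0.44, SD 0.48, adjusted p = 0.0556, exact test). The number of class pairs past the threshold for Hlf fell from 13 to 7 when the WT day 4, WT day 7 or Per2-/- day 7 library was left out and to 8 without Per1-/- day 4. Leaving out a library also raises the smallest p that the exact test can give. Mesothelial-like pairs rested on at most 7 libraries, among them these 4. With 6 libraries the smallest p in the exact test is 0.03125, which stood here at an adjusted p of 0.0556. The part of this limit in the lower counts was not tested.

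Nfil3, the D-box repressor, had another order. Schwann-like cells led with 14.8, 23.3 and 33.2 CPM (lowest, median, highest library), neuron-like cells had 9.65, 11.1 and 13 CPM, and macrophage-like cells had 1.53, 2.33 and 3.61 CPM. Schwann-like exceeded neuron-like cells in 9 of 9 libraries, by 0.87 (SD 0.44) on the log2 scale (adjusted p = 0.0146, exact sign-flip permutation test). Neuron-like exceeded fibroblast-like cells in 9 of 9 libraries, with a log2 difference of -0.42 (SD 0.23) of fibroblast-like from neuron-like cells (adjusted p = 0.0146, exact test). At the low end astrocyte-like cells lay below skeletal muscle-like cells by 1.21 (SD 0.71), in 7 of 8 libraries (adjusted p = 0.0322, exact test), and did not differ from macrophage-like cells beyond the spread (adjusted p = 0.829, exact test).

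Ciart, the CLOCK and BMAL1 repressor with the 3 E-boxes printed above, had the fewest UMI of the 5 members, 2587 in all. Mesothelial-like cells came first in the order with 0, 2.16 and 5.86 CPM (lowest, median, highest library), from 45 UMI in all, and did not differ from Schwann-like cells beyond the spread (adjusted p = 0.836, exact test). Their WT day 7 library, at 0, had 20 such cells. Schwann-like cells had 0.718, 1.93 and 6.46 CPM (lowest, median, highest library), and fibroblast-like cells lay between 1.36 and 2.30 CPM. Summed levels in macrophage-like, neuron-like and skeletal muscle-like cells were 0.865, 0.825 and 0.638 CPM. Fibroblast-like cells exceeded macrophage-like, neuron-like and skeletal muscle-like cells in 9 of 9 libraries each, by 0.79 (SD 0.32), 0.58 (SD 0.32) and 0.71 (SD 0.23) on the log2 scale, and Schwann-like exceeded macrophage-like cells in 9 of 9, by 1.04 (SD 0.64, adjusted p = 0.0146 for all 4, exact test). Neighbours in the order did not differ beyond the spread between libraries, and the closest to the threshold was the 0.42 (SD 0.45) by which astrocyte-like exceeded neuron-like cells (adjusted p = 0.0684, exact test).

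At the level of clusters, Hlf was concentrated in 1 group of cells that carried no class name. This cluster (number 2, led by Foxd1, Lbp, Pax9 and Zic1) held 2494 of the Hlf UMI, or 35.9%, and had 8.26, 21.9 and 25.6 CPM as the lowest, median and highest of 9 libraries. It had 12 of the 14 fibroblast markers present. It stayed unnamed because the neuron markers Nefm and Nefl were also among its top genes. The main fibroblast-like values of every member, and the order of the classes, therefore leave these cells out. They also leave out cluster 5 (4951 cells), which had 13 of the 14 fibroblast markers present. It stayed unnamed because the pericyte markers Kcnj8 and Abcc9 were among its top genes. An alternative fit of genotype and day added both clusters. On day 7 the fibroblast-like class was 16.8% of the Per1-/- cells, 40.4% of the WT cells and 41.6% of the Per2-/- cells. The fibroblast-like cluster with the most Hlf, cluster 6, had 8.96 CPM. For Nfil3 a small cluster led by the adipocyte genes Adipoq, Retn and Fabp4 stood level with the Schwann-like cells, at 21.1 CPM (16.3 to 23.0 over 4 libraries), and the same cluster had 39.9 CPM of Dbp. Within the fibroblast-like class Dbp was 40.8 CPM in cluster 4 and 13.8 CPM in cluster 18, which was led by the cell division genes Top2a and Kif11, and Tef was 33.5 CPM in cluster 18. Among macrophage-like cells the dividing cluster 22 (Mki67, Birc5) likewise held the least, with 6.06 CPM of Dbp and 13 CPM of Tef.

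**Figure D2:**
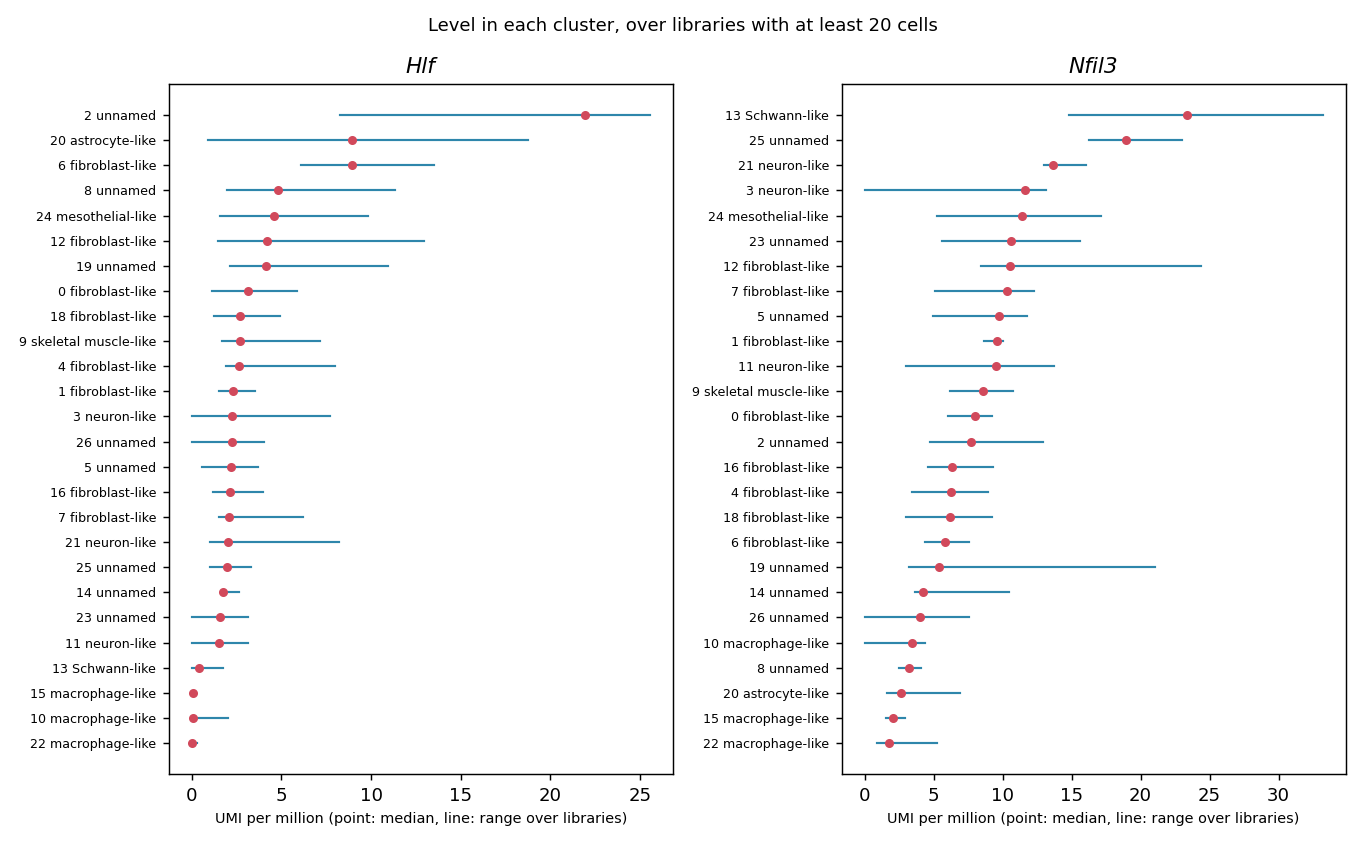
Hlf and Nfil3 in each cluster, in CPM, with the point at the median and the line from the lowest to the highest library. Hlf peaks in the unnamed cluster 2, with a median of 21.9, and Nfil3 in the Schwann-like cluster, with a median of 23.3, and the adipocyte-gene cluster.

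The main question of the design was how loss of Per1 or Per2 altered the cells, and Dbp in macrophage-like cells was the member with the smallest p against WT. On days 4, 7 and 10 Dbp was 3.61, 6.80 and 9.81 CPM in WT, 7.45, 16.9 and 21.3 CPM in Per1-/- and 6.31, 15.5 and 19.7 CPM in Per2-/- macrophage-like cells. Both mutants lay above WT on each of the 3 days, and the level rose from day to day in all 3 genotypes, so that the WT day 10 value exceeded the mutant values of day 4. Within a day, Dbp in Per1-/- was 2.06 times the WT level on day 4 (95% interval 1.16 to 4.0), 2.49 times on day 7 (1.98 to 3.16) and 2.17 times on day 10 (1.65 to 2.91). The same ratios for Per2-/- were 1.75 (0.867 to 3.71), 2.28 (1.81 to 2.90) and 2.01 (1.51 to 2.71). These intervals are exact and cover counting error only.

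Since no day had a second library of a genotype, genotypes were tested over the 3 days with day as a covariate, by edgeR's quasi-likelihood test on the summed counts of each class. Dbp in macrophage-like cells differed by a log2 fold change of 1.26 (SE 0.13) between Per1-/- and WT and by 1.11 (SE 0.14) between Per2-/- and WT, with adjusted p of 0.0511 and 0.170 in edgeR's quasi-likelihood test, and neither passed the threshold. Per1-/- and Per2-/- differed by 0.16 (SE 0.12, adjusted p = 0.551, edgeR), with within-day ratios of 1.18, 1.09 and 1.08. The comparisons with WT share the WT libraries. Of 4 members tested, 0 passed in either comparison with WT, where 0.00792% and 0% of all genes passed, and 3 (Dbp, Tef and Ciart) had an unadjusted p under 0.05 in each, as did 869 (Per1-/-) and 2041 (Per2-/-) of all 12624 genes. DESeq2 called Dbp in both comparisons. Of 17 alternative settings 8 called Dbp for Per1-/- and 3 for Per2-/-, with log2 fold changes from 1.08 to 1.31 and from 0.97 to 1.15.

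The Dbp difference was also seen within the macrophage-like clusters. In cluster 10 Dbp was 4.56, 8.14 and 9.13 CPM in WT on days 4, 7 and 10, 8.92, 19.0 and 15.2 CPM in Per1-/-, and 7.43, 16.7 and 10.1 CPM in Per2-/-. The day 10 values of that cluster rest on 8, 7 and 5 UMI from 35, 29 and 31 cells, and their exact 95% intervals overlap (3.94 to 18.0 CPM in WT, 6.12 to 31.3 in Per1-/- and 3.28 to 23.6 in Per2-/-). In cluster 15, which held 71.6% to 94.1% of the macrophage-like cells of day 10, it was 11.1 CPM in WT, 23.4 in Per1-/- and 20.2 in Per2-/-. The class leaves out cluster 14, where 13 macrophage markers were raised and 615 cells were kept. That cluster stayed unnamed because 73.9% of its cells were scored as doublets, and its part was not tested. With the dividing cluster 22 left out, which made up 2.81% to 26.4% of the macrophage-like cells, the log2 fold change was 1.21 for Per1-/- (adjusted p = 0.0179) and 0.97 for Per2-/- (adjusted p = 0.0875) in edgeR's quasi-likelihood test. Adding the summed Y-linked genes as a covariate gave 1.08 for Per1-/- (adjusted p = 1, edgeR) and 1.03 for Per2-/- (adjusted p = 0.503, edgeR), and without the day 10 libraries the values were 1.28 (adjusted p = 0.672, edgeR) and 1.10 (adjusted p = 0.789, edgeR). Beside this result the 14 fibroblast markers summed to 201 to 661 CPM in macrophage-like cells, lowest in Per1-/- day 7 and highest in Per2-/- day 10, with none at 0, and the heat shock and dissociation genes to 843 to 1046 CPM, and their part in it was not tested.

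**Figure D3:**
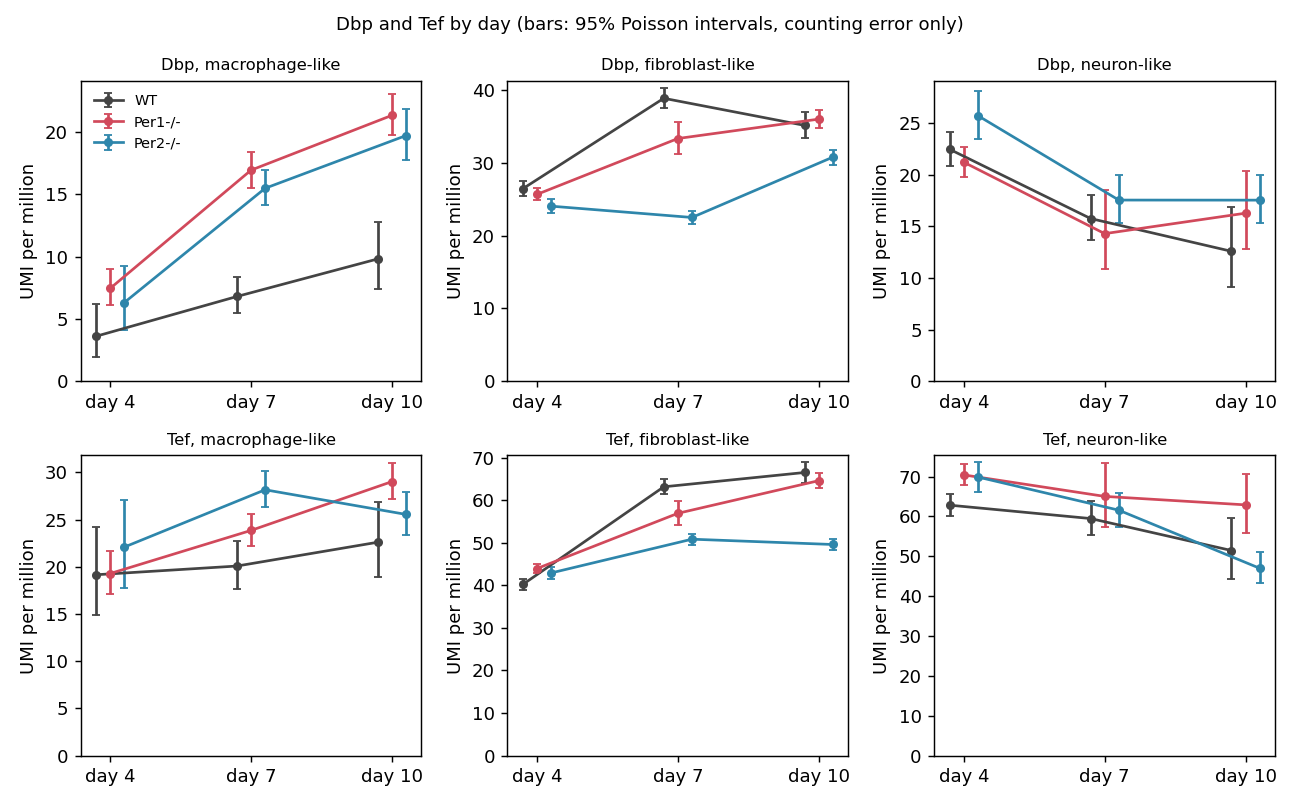
Dbp (top) and Tef (bottom) in CPM on days 4, 7 and 10 in macrophage-like, fibroblast-like and neuron-like cells, with 1 line per genotype and 95% Poisson intervals that cover counting error only. In macrophage-like cells Dbp rises with the day in each genotype and the WT line is lowest, and in neuron-like cells it falls after day 4.

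The other members moved less or rested on few counts in macrophage-like cells. Tef was 19.2, 20.1 and 22.6 CPM in WT on days 4, 7 and 10, 19.3, 23.9 and 29.0 CPM in Per1-/- and 22.1, 28.2 and 25.5 CPM in Per2-/-. Both mutants lay above WT on each day, Per1-/- on day 4 by little, and the groups overlapped across the days. The log2 fold changes were 0.29 (SE 0.12, adjusted p = 0.719) and 0.36 (SE 0.13, adjusted p = 0.245) against WT in edgeR's quasi-likelihood test. Ciart gave 0, 5 and 2 UMI in WT, 5, 40 and 37 in Per1-/- and 2, 27 and 14 in Per2-/-. On day 7 its ratio of Per1-/- to WT was 3.18 (exact interval 1.26 to 10.3), and over the days the log2 fold change was 1.84 (SE 0.55, adjusted p = 0.559, edgeR's quasi-likelihood test).

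Nfil3 passed in no comparison of genotypes in these cells in the main test. It was 3.61, 2.29 and 2.28 CPM in WT macrophage-like cells on days 4, 7 and 10, 2.33, 1.86 and 1.53 CPM in Per1-/- and 2.91, 3.33 and 2.95 CPM in Per2-/-. On each day the Per1-/- value was the lowest of the 3. Per1-/- lay below Per2-/- by a log2 fold change of -0.75 (SE 0.24, adjusted p = 0.218, edgeR's quasi-likelihood test), where 0.00792% of all genes passed, and this difference was past the threshold only without the Per2-/- day 4 library, among the settings run. Hlf was filtered out for low counts and was not tested in these cells.

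In fibroblast-like and neuron-like cells no member passed in any comparison of genotypes, in the main test or in any alternative, and no member had an unadjusted p under 0.05 in edgeR's quasi-likelihood test. Of all genes 0% passed in fibroblast-like cells, and 0% (Per1-/- against WT), 0.0139% (Per2-/- against WT) and 0.00695% (between the mutants) in neuron-like cells. Dbp in fibroblast-like cells was 26.4, 38.9 and 35.1 CPM in WT on days 4, 7 and 10, 25.7, 33.3 and 36.0 CPM in Per1-/- and 24, 22.5 and 30.8 CPM in Per2-/-, with log2 fold changes against WT of -0.03 (SE 0.14) and -0.29 (SE 0.14). In neuron-like cells Dbp differed from WT by 0.00 (SE 0.13) in Per1-/- and 0.25 (SE 0.12) in Per2-/-. Day by day, Per2-/- lay below WT on all 3 days in fibroblast-like cells and above WT on all 3 in neuron-like cells, and Per1-/- lay on both sides of WT in both classes. The fibroblast-like cells of the genotypes sat in different clusters. On day 4 cluster 12 held 32.6% of them in Per2-/- and 4.19% in WT, on day 7 cluster 0 held 73.9% and 32.5%, and on day 10 cluster 6 held 71.3% and 6.69%. Within clusters on day 4, Per2-/- lay below WT in clusters 0, 4 and 18 (for example 23.2 against 34.6 CPM in cluster 0) and above it in clusters 7, 12 and 16 (for example 29.3 against 21.0 CPM in cluster 16). On day 7 it lay below WT in 6 of 6 clusters (for example 20.5 against 35.9 CPM in cluster 0) and on day 10 in 6 of 7, all but cluster 0.

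**Figure D4:**
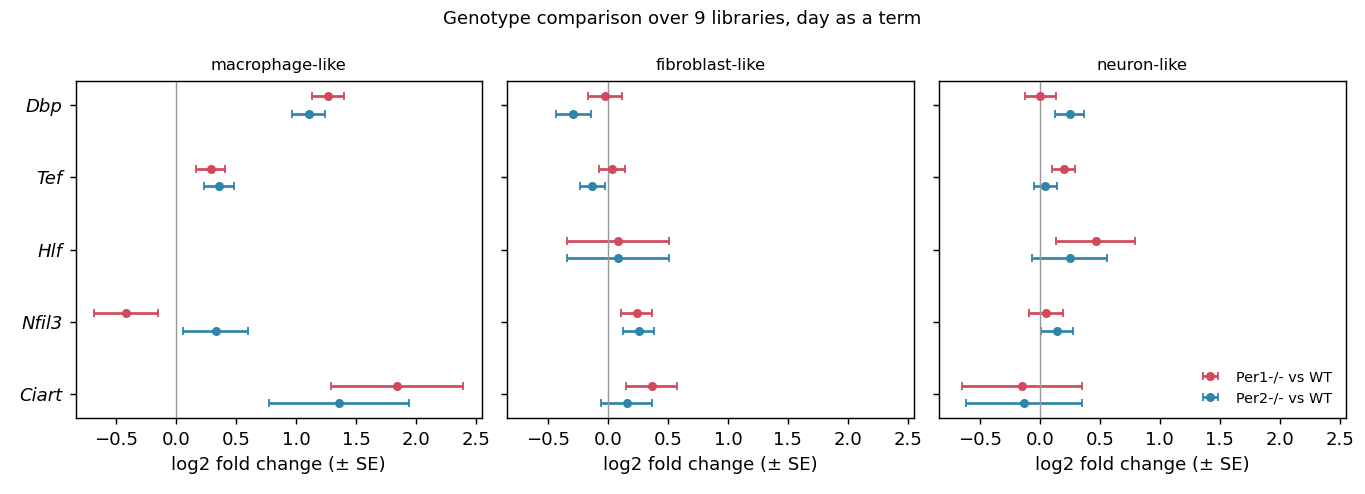
Log2 fold change of each member against WT in macrophage-like, fibroblast-like and neuron-like cells for Per1-/- and Per2-/-, with bars of 1 SE from the fit over 3 days. Dbp in macrophage-like cells lies at 1.26 and 1.11, Ciart there is higher with long bars, and Hlf was not tested in macrophage-like cells.

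Whether the genotype difference itself differed between classes was tested in a joint fit of the 3 classes with terms for library, class and class by genotype. For Dbp the difference between macrophage-like and fibroblast-like cells was 1.33 (SE 0.58, unadjusted p = 0.0358) for Per1-/- and 1.51 (SE 0.59, unadjusted p = 0.0204) for Per2-/-, with adjusted p of 0.981 and 0.703 in edgeR's quasi-likelihood test. Of 17061 genes 0 passed in any of the 6 such contrasts, with 240 to 1204 genes at an unadjusted p under 0.05. That fit lets no day change differ between classes. With class by day terms added, chosen after the values were seen, the same differences of Dbp were 1.44 (SE 0.18, adjusted p = 0.0172, edgeR) and 1.56 (SE 0.18, adjusted p = 0.0185, edgeR), and both passed. Tef passed for Per2-/-, with 0.62 (SE 0.12, adjusted p = 0.0405, edgeR). These were 1 of 5 members beside 0.0234% of all genes for Per1-/-, and 2 of 5 beside 0.721% for Per2-/-. Against neuron-like cells Dbp missed the threshold in that fit for Per1-/- (1.39, adjusted p = 0.0832, edgeR) and for Per2-/- (adjusted p = 0.0845, edgeR), with 0 of 5 members beside 0.00586% of all genes in each. Whether the Dbp difference from WT was larger in macrophage-like than in fibroblast-like cells by the threshold thus depended on the terms of the fit. Over all cells together 0 of 5 members passed for Per1-/- against WT, where 2.57% of all genes did, 0 for Per2-/- against WT (0.00533%), and 0 between the mutants (0.522%). Sums over all cells mix classes whose shares differed, with macrophage-like cells at 23.2% of the Per1-/- and 6.60% of the WT cells on day 7, and the part of these shares was not tested. Ciart (Per1-/- against WT) and Nfil3 (Per2-/- against WT) had an unadjusted p under 0.05 in edgeR's quasi-likelihood test over all cells. So did 3298 and 1632 of all 18777 genes in these comparisons. Over all cells 0 members passed in any other tool or setting run.

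The Schwann-like, astrocyte-like, skeletal muscle-like and mesothelial-like cells were not entered in the genotype test, and only values are given. Schwann-like Dbp was 10.6, 23.4 and 18.7 CPM in WT on days 4, 7 and 10, 25.1, 44.5 and 44.7 CPM in Per1-/-, and 19.0, 19.0 and 16.9 CPM in Per2-/-. Per1-/- was at 2.37 (1.43 to 4.09), 1.90 (1.39 to 2.63) and 2.40 (1.75 to 3.33) times WT on the same day, with exact counting intervals. The share of all genes with such ratios in Schwann-like cells was not computed. In the Per1-/- libraries of days 7 and 10 genotype and sex cannot be told apart. Ciart in these cells was 1.93, 5.99 and 6.46 CPM in Per1-/- against 2.51, 1.06 and 0.718 CPM in WT, from 2 to 25 UMI per library. Astrocyte-like Dbp was 29.7, 53.9 and 41.8 CPM in WT, 43.6, 65.3 and 88.2 CPM in Per1-/- and 42.5, 23.1 and 33.2 CPM in Per2-/-. Per1-/- exceeded WT on each day there too, within the counting interval on day 7 (ratio 1.21, 0.932 to 1.56). Its day 10 value rested on 18 cells, under the 20 asked for in class comparisons. Skeletal muscle-like Dbp was 20.7, 23.6 and 22.7 CPM in WT, 16.2, 19.9 and 25.8 CPM in Per1-/- and 17.6, 16.0 and 23.7 CPM in Per2-/-. In these cells Per1-/- lay below WT on days 4 and 7 and above it on day 10. Mesothelial-like Dbp on days 4 and 7 was 21.8 and 15.8 CPM in WT, 22.4 and 41.7 in Per1-/- and 18.9 and 13.7 in Per2-/-. WT day 10 held 2 such cells.

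The other clock genes are given from 2 lists, 18 core clock genes and 17 targets and outputs of the PAR bZIP factors and the clock. In macrophage-like cells 0 of 16 core clock genes and 0 of 14 outputs that could be tested passed for either mutant against WT, with 6 and 4 core clock genes at an unadjusted p under 0.05, beside 869 and 2041 of all 12624 genes. Per3, a PER family member and E-box target, was 8.05, 8.62 and 10.7 CPM in WT on days 4, 7 and 10, 11.1, 18.6 and 20.9 CPM in Per1-/- and 7.28, 16.2 and 17.7 CPM in Per2-/-. Its log2 fold changes were 0.97 (SE 0.18, adjusted p = 0.326) and 0.67 (SE 0.18, adjusted p = 0.205) in edgeR's quasi-likelihood test. Nr1d1 had 0.70 and 0.93, Nr1d2 0.46 and 0.15, Arntl -0.74 and -0.09, and Cry1 0.15 and -0.06 for Per1-/- and Per2-/-, none past the threshold, and the median of the core clock list was 0.04 and 0.14 beside 0.00 and 0.01 over all genes. Over all cells 2 of 18 core clock genes (Bhlhe41 and Per1) and 1 of 15 outputs (Pdxk, a vitamin B6 kinase and PAR bZIP target) were higher in Per1-/- than WT, beside 2.57% of all genes.

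Day 10 against day 4 gave more calls than any comparison of genotypes in each of the 3 classes (day 10 counts were made with another software version than those of days 4 and 7, and version and day cannot be told apart), and Dbp went in opposite directions in different cells. In macrophage-like cells Dbp, with the values given above, was higher by a log2 fold change of 1.2 (SE 0.14) on day 7 than on day 4 (adjusted p = 0.0344, edgeR's quasi-likelihood test) and by 1.63 (SE 0.14) on day 10 (adjusted p = 0.000387, edgeR). The day 10 difference passed in 15 of 15 alternatives. Most macrophage-like cells of day 10 sat in another cluster than those of days 4 and 7. Cluster 15 held 71.6% to 94.1% of the class on day 10 and 0 on day 4. Within cluster 10 Dbp was higher on day 10 than on day 4 in each genotype, from 5 to 8 UMI per library on day 10. In both mutants it was lower there on day 10 than on day 7. The part of the clusters in the day difference was not tested. The day 7 difference lost the call without Per1-/- day 4, without any of the 3 day 7 libraries or without WT day 10, with an adjusted p of up to 0.192. Tef rose by 0.44 (SE 0.13) on day 10 (adjusted p = 0.0470, edgeR), a call that held in 5 of 15 alternatives. Within cluster 10 Tef did not rise. It was 19.3, 21.9 and 26.2 CPM on day 4 in WT, Per1-/- and Per2-/- and 18.3, 17.4 and 18.2 CPM on day 10, from 8 to 16 UMI per library on day 10. In the dividing cluster 22 it was lower on day 10 than on day 4 in WT and higher in both mutants. Thus 1 of 4 tested members passed on day 7, beside 0.396% of all genes, and 2 of 4 on day 10, beside 16.7%.

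In neuron-like cells Dbp fell. It was 22.4, 15.7 and 12.6 CPM in WT on days 4, 7 and 10, 21.2, 14.3 and 16.3 CPM in Per1-/- and 25.7, 17.5 and 17.5 CPM in Per2-/-. The 3 day 4 values were above all later ones. The log2 fold change was -0.53 (SE 0.12, adjusted p = 0.0103) on day 7 and -0.47 (SE 0.13, adjusted p = 0.0111) on day 10 in edgeR's quasi-likelihood test, and the day 7 call was lost without WT day 4, Per1-/- day 7 or Per2-/- day 7. Nfil3 rose on day 10, from 10.3, 9.65 and 10.3 CPM on day 4 to 11.1, 13 and 13 CPM in WT, Per1-/- and Per2-/-, a log2 fold change of 0.39 (SE 0.14, adjusted p = 0.0395, edgeR's quasi-likelihood test) that passed in 5 of 14 alternatives. Tef was 62.8, 70.4 and 69.9 CPM on day 4 and 51.5, 62.9 and 47.0 CPM on day 10, with a log2 fold change of -0.25 (adjusted p = 0.0550, edgeR). The background in this class was 19.8% of all genes on day 7, where 1 of 5 members passed, and 44.1% on day 10, where 2 of 5 did, so the count of members lay near the share over all genes.

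The clusters that held most neuron-like cells were the same on days 4 and 7 and differed on day 10. On day 10, cluster 21 had 69.4% to 86.3% of them, with Dbp at 11, 10.8 and 17.0 CPM in WT, Per1-/- and Per2-/-. Within cluster 3 Dbp went from 22.6 CPM on day 4 to 15.4 on day 7 in WT, from 20.3 to 16.0 in Per1-/- and from 27.2 to 20.3 in Per2-/-, and cluster 11 had the same direction in all 3 genotypes. On day 10 cluster 3 had 19.8, 29.0 and 20.9 CPM from 23 to 54 cells per library. In cluster 11 the day 10 values were 34.8 CPM in Per1-/- (exact 95% interval 22 to 52.2, 51 cells) and 23.5 CPM in Per2-/- (13.2 to 38.8, 57 cells), against 22.4 and 23.5 CPM on day 4, and WT had 4 UMI in 13 cells. The lower level on day 7 was thus also present within clusters 3 and 11, and the lower level of day 10 was not present in all genotypes of either. The higher Nfil3 of day 10 was likewise not seen in clusters 3 and 11 as a whole. Nfil3 in cluster 3 was 13.1, 11.4 and 10.8 CPM on day 4 in WT, Per1-/- and Per2-/- and 0, 5.80 and 13 CPM on day 10, from at most 10 UMI per library. In cluster 21 it was 13, 16.0 and 13.2 CPM on day 10.

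In fibroblast-like cells Tef was 40.2, 44.0 and 42.9 CPM on day 4 in WT, Per1-/- and Per2-/-, 63.1, 56.9 and 50.8 CPM on day 7 and 66.5, 64.6 and 49.6 CPM on day 10. All 6 later values were above the 3 of day 4. The cells of the days sat in different clusters, with cluster 1 holding 84.7% of Per1-/- and cluster 6 holding 71.3% of Per2-/- fibroblast-like cells on day 10 and at most 2 cells of those libraries on day 4. Of the 5 clusters with a value on both days, Tef was higher on day 10 than on day 4 in 5 in WT and in Per1-/-, and in 2 in Per2-/-, where cluster 4 went from 54.5 to 45.7 CPM. The log2 fold change on day 10 was 0.45 (adjusted p = 0.0349, edgeR's quasi-likelihood test) and lost the call in 7 of the 9 settings that left out 1 library, all but those without Per2-/- day 4 or Per2-/- day 10. It was the only member called of 5, where 15.3% of all genes were. On day 7 the count was 0 of 5 members and 0% of genes. Of the members Tef alone had an unadjusted p under 0.05 in edgeR's quasi-likelihood test on day 7, beside 2518 of all 16812 genes. Dbp had a log2 fold change of 0.37 (SE 0.14, adjusted p = 0.118, edgeR) on day 10.

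The day difference was then compared between classes in 1 joint fit, a test added after these values had been seen. Between macrophage-like and neuron-like cells the change of Dbp differed by 1.77 on the log2 scale (SE 0.48, adjusted p = 0.0251, edgeR's quasi-likelihood test) on day 7 and by 2.14 (SE 0.49, adjusted p = 0.00407, edgeR) on day 10, and that of Tef by 0.84 (SE 0.20, adjusted p = 0.00482, edgeR) on day 10. Tef also differed between neuron-like and fibroblast-like cells on day 10, by -0.75 (SE 0.18, adjusted p = 0.00618, edgeR). Thus 1 member passed on day 7 between macrophage-like and neuron-like cells, beside 11.6% of genes, 2 on day 10, beside 24.5%, and 1 between neuron-like and fibroblast-like cells on day 10, beside 25.3%. Macrophage-like and fibroblast-like cells showed no member past the threshold on either day, beside 0.123% and 6.34% of genes, and neuron-like and fibroblast-like cells showed none on day 7, beside 5.60%. With class by genotype terms added to that fit, Dbp also passed between macrophage-like and fibroblast-like cells, by 1.10 (SE 0.18, adjusted p = 0.00830, edgeR) on day 7 and 1.3 (SE 0.18, adjusted p = 0.000845, edgeR) on day 10, and between neuron-like and fibroblast-like cells, by -0.79 (SE 0.15, adjusted p = 0.00582, edgeR) and -0.91 (SE 0.16, adjusted p = 0.000860, edgeR). The calls over all genes rose with these terms too. Between macrophage-like and fibroblast-like cells 1 of 5 members passed on each day, beside 5.32% of genes on day 7 and 13.1% on day 10. Between neuron-like and fibroblast-like cells 2 passed on day 7, beside 12.5%, and 3 on day 10, beside 31.6%, and between macrophage-like and neuron-like cells 2 passed on each day, beside 16.7% and 28.2%.

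Of the core clock list a minority differed between day 10 and day 4 in each class. In macrophage-like cells 3 of 16 core clock genes were higher and 0 lower, beside 16.7% of all genes in either direction, among them Per3 (0.97, adjusted p = 0.0138) and Nr1d2 (0.51, adjusted p = 0.0380) in edgeR's quasi-likelihood test. In fibroblast-like cells Per3 (0.94, adjusted p = 0.0111, edgeR), Nr1d2 and the activator Rora were higher, and Bhlhe40 and Csnk1e lower, of 18, beside 15.3% of all genes. In neuron-like cells 0 were higher and 5 of 17 lower, beside 44.1% of all genes, among them Arntl (-0.38), Nr1d2 (-0.33) and Csnk1d. Among the outputs, Tsc22d3 was higher and Wee1 and Fkbp5 lower in macrophage-like cells, Fkbp5 was lower in fibroblast-like cells, and in neuron-like cells 5 of 14 were higher (among them Pdxk, 0.81, and the P450 reductase gene Por, 0.51) and 2 lower (Cdkn1a and Gpcpd1). Tsc22d3 and Fkbp5 are also known glucocorticoid receptor targets.

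In fibroblast-like cells the share of cells that held a UMI of Dbp, Tef, Hlf or Nfil3 lay a little below what an even level would give. After thinning each cell to 10000 UMI, 23.1% of 31667 fibroblast-like cells held a Dbp UMI (exact 95% interval 22.6% to 23.6%), against 25.7% expected if every cell of a library had the same level, and 38.6% held Tef against 40.7%. Before thinning the shares were 40.7% for Dbp and 63.4% for Tef, in cells with a median of 21496 UMI. Macrophage-like cells had 13.4% for Dbp and 0.0969% for Hlf (6 of 6191 cells). Hlf was found in 2.86% of fibroblast-like cells against 3.52% if even, with up to 15 UMI in 1 cell, and Nfil3 in 7.74% against 8.06%.

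Fibroblast-like cells that held a Dbp UMI were set against cells of the same library that held none, standardised to the same mix of clusters, and the 9 ratios were tested with limma. Of the core clock list 6 genes were higher in the cells with Dbp. Nr1d1 averaged 11.6 CPM (SD 3.57, n = 9 libraries) in cells with Dbp and 7.68 CPM (SD 2.95) in those without, a log2 ratio of 0.56 (SE 0.036, adjusted p = 1.19e-05, limma), higher in 9 of 9 libraries. Per3 had 42.7 (SD 13.4) against 31.6 CPM (SD 10.7) and a log2 ratio of 0.43, Nr1d2 0.39, Bhlhe41 0.35, Rora 0.24 and Cry2 0.10. Of 14 core clock genes tested these 6 were higher and 0 lower, beside 28.0% of all genes in either direction. Arntl (-0.01), Per1 (-0.01) and Cry1 (-0.04) did not pass.

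Among the members themselves Tef was higher in the cells with Dbp, at 62.2 (SD 10.6) against 51.7 CPM (SD 9.25), a log2 ratio of 0.26 in 9 of 9 libraries (adjusted p = 0.000141, limma). Nfil3 was lower, at 7.42 (SD 1.10) against 8.41 CPM (SD 1.03), a log2 ratio of -0.16 in 8 of 9 libraries (adjusted p = 0.0448, limma). The Nfil3 call held in 6 of 13 alternatives and was lost without WT day 4, Per1-/- day 4, Per2-/- day 4, Per2-/- day 7, WT day 10 or Per1-/- day 10, or when genes of at least 1 CPM were tested, with an adjusted p of up to 0.0971. Cry2 passed in 3 of 13 alternatives. The 5 genes with the smallest p were no clock genes: Ahnak2 and Exoc4 were higher, by 0.29 and 0.26, and Ctps, Tpm4 and Ddah1 lower, by -0.40, -0.30 and -0.42 on the log2 scale. Of the 13 outputs tested Cdkn1a (0.44), a cell cycle inhibitor, and Usp2 (0.18) were higher and Fkbp5 (-0.28), Coq10b (-0.11) and Leo1 (-0.09) lower.

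**Figure D5:**
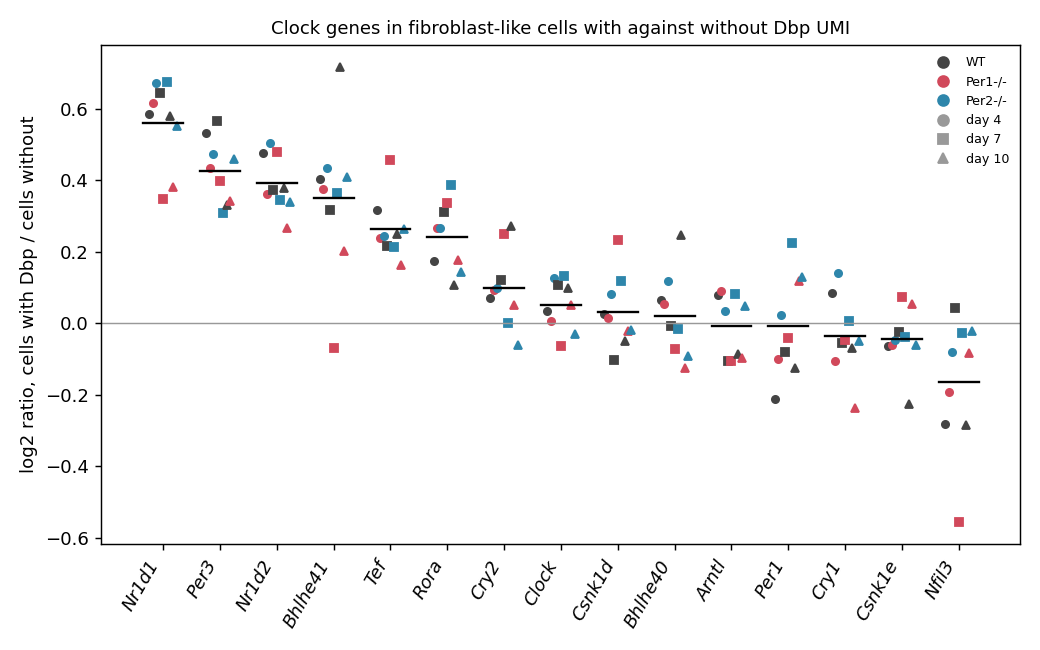
Log2 ratio of clock genes in fibroblast-like cells with a Dbp UMI against cells without, with 1 point for each of 9 libraries. Nr1d1, Per3, Nr1d2 and Tef are above 0 in every library, and Nfil3 is below 0 in 8 of 9.

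Splitting the same cells by Tef gave a like set. Of 14 core clock genes 7 were higher and 0 lower, beside 23.0% of all genes, among them Per3 with a log2 ratio of 0.32, Nr1d2 with 0.26, Nr1d1 with 0.24, Bhlhe41 with 0.18, Rora with 0.12 and Cry2 with 0.07. Dbp was higher by 0.27 and Nfil3 lower by -0.17 (adjusted p = 0.00620, limma), and the Nfil3 difference was absent after thinning to 5000 UMI. The 5 genes with the smallest p were Srm, Nr1d2, Ano3, Trp53inp1 and Adm. Both splits use the same cells, so they are no independent pair. Hlf, Nfil3 and Ciart were in too few cells of at least 1 library (20, 77 and 14) to be used for a split.

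Across the 27 sums of 3 classes and 9 libraries, after subtracting each class mean, the genes most like Dbp were 2010315B03Rik (r = 0.92), P2rx4, Sidt2, Inpp5k and Cnppd1 of 7902 ranked. Per3 came at rank 13 (r = 0.86) and Tef at rank 61 (r = 0.81). The genes most like Tef were Appl2, Lrp6, 2010315B03Rik, Tmem106b and Pnpla8 (r = 0.87 to 0.88), again with Per3 at rank 13. For Hlf they were 2310011J03Rik, Lrpap1, Enox2, B230118H07Rik and Pigyl (r = 0.59 to 0.62). For Nfil3 they were Gm1673, Pcbp4, Dynlt1a, Dnm1 and the neuronal tubulin gene Tubb3 (r = 0.70 to 0.75), and for Ciart Fbxw2, Arl1, Fam213a, Ric8a and Naxd (r = 0.80 to 0.83), with Dbp at rank 162 (r = 0.67). The 27 sums share libraries and depths, and these correlations are descriptions.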

How the data were processed

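The authors deposited raw UMI counts per gene and cell from 10x 3′ libraries aligned to mm10 with Cell Ranger. Per the file headers, days 4 and 7 were made with version 4.0.0 (31053 genes) and day 10 with 6.0.0 (32285 genes), and the 30406 genes in common were used. The study's methods name a later version, and the headers were followed. The change of version coincides with day 10, and version and day cannot be told apart. A library held 126625215 to 353198559 UMI in all. Barcodes under 3000 UMI or over 20% mitochondrial UMI were dropped (81989 of 95603 stayed), and the 8442 highest doublet scores (scrublet, scanpy 1.11.5, 0.8% per 1000 barcodes) were removed. Cells were clustered (2000 variable genes, 30 components, Leiden resolution 1) without 69 clock, stress, sex-linked and mitochondrial genes, and clusters were named from marker lists. Members and lists were chosen with earlier results of these data known.

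Counts were summed per library and class (at least 20 cells for class comparisons) and tested with edgeR 4.0.16 (quasi-likelihood, day and genotype as terms, filterByExpr, TMM). In the genotype tests the p-values measure how the genotype difference varied between days. In the day tests they measure how the day difference varied between genotypes. The class and split tests measure the spread of within-library differences between libraries. The joint fits of the 27 sums measure the spread left after their library, class and interaction terms. DESeq2 1.42.0, limma-voom (limma 3.58.1), other size factors, no filter, doublets kept, a Y-linked covariate, no day 10 and leaving out each library were alternatives. Classes were compared in a fit of 27 sums with library, class and class by genotype (or class by day) as terms, and with both interactions as an alternative added later. Class levels were compared by exact sign-flip permutation tests on log2(CPM + 1), and fold changes there understate low genes. The split of cells used limma. On simulated data 83.6% of 2-fold changes were recovered in macrophage-like cells (12445 genes), and 86.6% and 91.0% in fibroblast-like and neuron-like cells. The simulation had a fixed dispersion and planted many changes, only in genes above a minimum count. It gave 150 calls in macrophage-like cells, against 1 in the real test of Per1-/- against WT. These shares therefore do not give the power of the real tests, nor that for low counts such as those of Ciart and Hlf. Adjusted p-values are Benjamini-Hochberg, over the 105 comparisons in the class level tests and over all genes tested elsewhere. Intervals and the limit for a count of 0 (3 counts) cover counting error only. The text names the 5 members, the targeted genes, called list genes with Per3, Nr1d1, Nr1d2, Arntl and Cry1, and the 5 genes most alike or with the smallest p. Some genes counted in the lists are not reported here by name. Clusters named in the text were chosen after their values were seen.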

Additional observations from a re-analysis of the deposited data

Results flagged for a closer look

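In 4 results the change with the day differed between cell classes by the test of the difference itself, edgeR's quasi-likelihood test on the 27 sums, which was added after the values were seen. The change of Dbp was larger in macrophage-like than in neuron-like cells by 1.77 on the log2 scale from day 4 to day 7 (adjusted p = 0.0251, 0.000170 to 0.114 over 13 alternatives, past the threshold in 9) and by 2.14 from day 4 to day 10 (adjusted p = 0.00407, past in 13 of 13). The change of Tef from day 4 to day 10 was larger in macrophage-like than in neuron-like cells by 0.84 (adjusted p = 0.00482, past in 13 of 13) and lower in neuron-like than in fibroblast-like cells by -0.75 (adjusted p = 0.00618, past in 13 of 13). In macrophage-like cells Dbp rose in 3 of 3 genotypes and in neuron-like cells it fell in 3 of 3 from day 4 to day 7. Most macrophage-like and neuron-like cells of day 10 sat in other clusters than those of day 4. On day 7 this was not so. Cluster 10 held 73.6% to 82.7% of the macrophage-like cells on day 4 and 78.8% to 92.2% on day 7. Cluster 3 held 57.5% to 63.4% and 59.8% to 66.5% of the neuron-like cells. The part of the clusters in these differences was not tested.

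In 3 results the difference from WT was larger in macrophage-like than in fibroblast-like cells by the test of that difference in edgeR's quasi-likelihood test, and only with class by day terms in the fit. With these terms, chosen after the values were seen, the values were 1.44 for Dbp in Per1-/- (adjusted p = 0.0172), 1.56 for Dbp in Per2-/- (adjusted p = 0.0185) and 0.62 for Tef in Per2-/- (adjusted p = 0.0405), all from edgeR. Over the other 12 alternatives, which lack these terms, none of the 3 passed.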

How the results depend on the processing

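Of the counts of members past the threshold in macrophage-like cells, that for Per1-/- against WT went from 0 to 1 (Dbp) with no low-count filter, DESeq2, limma-voom, doublets kept or cluster 22 left out (0 to 1 when 1 library was left out), and that for Per2-/- against WT from 0 to 1 (Dbp) with no filter or DESeq2 (0 to 1 when 1 library was left out). Between the mutants it was 0 to 1 (Nfil3) when 1 library was left out. For day 7 against day 4 the count ranged from 0 to 1 in macrophage-like and in neuron-like cells when 1 library was left out. For day 10 it went from 2 to 1 with DESeq2 or without cluster 22 in macrophage-like cells (1 to 2 when 1 library was left out), and from 2 to 1 with no filter or DESeq2 in neuron-like cells (1 to 2 when 1 library was left out, and 3 with limma-voom), and in fibroblast-like cells it was 0 to 1 when 1 library was left out. The day difference between macrophage-like and neuron-like cells counted 0 to 2 members on day 7, and that between neuron-like and fibroblast-like cells 1 to 3 on day 10, when 1 library was left out. With class by day terms added, the members past the threshold in the genotype difference between macrophage-like and fibroblast-like cells went from 0 to 1 (Per1-/-) and from 0 to 2 (Per2-/-). With class by genotype terms added, those in the day difference went from 0 to 1 on day 7 and on day 10 between macrophage-like and fibroblast-like cells, from 0 to 2 and from 1 to 3 between neuron-like and fibroblast-like cells, and from 1 to 2 on day 7 between macrophage-like and neuron-like cells, while the share of all genes past it rose as well (5.32% to 31.6% over these contrasts). In the split by Dbp the genes lower went from 1 to 0 when genes of at least 1 CPM were tested (0 to 1 when 1 library was left out). In the split by Tef, thinning to 5000 UMI gave 5 higher in place of 8 and 0 lower in place of 1, and turned the log2 ratio of Nfil3 to 0.0075 (adjusted p = 0.903, limma). Hlf class pairs ranged from 7 to 13 when 1 library was left out, which also raises the smallest p of the exact test. The cause of these changes was not tested, beyond the terms and filters named. Of the other values for single genes, 143 kept direction and call, 12 lost and 10 gained the call outside the settings that left out a library, and 264, 47 and 4 did so within them. No called class pair reversed in 11 alternatives. The labels give 1 library per group, so no fit has a replicate block. The low counts of Ciart and Hlf limit what could be detected.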
